A study of Mus musculus with 6 samples.

Results

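Platelet-activating factor (PAF), thromboxane and leukotrienes are lipid messengers that blood cells make from membrane phospholipids and from arachidonic acid. PAF is switched off when an acetylhydrolase removes its acetyl group. In the type Ib enzyme this is done by a dimer of the catalytic subunits *Pafah1b2* and *Pafah1b3*, which bind the regulatory subunit *Pafah1b1* (LIS1), a protein that also regulates the motor dynein. Arachidonic acid goes into the prostanoids through cyclooxygenase 1 (*Ptgs1*). Its product, prostaglandin H2, is turned into thromboxane A2 by *Tbxas1*, an enzyme of platelets and macrophages, or into prostaglandin D2 by *Hpgds*. Arachidonic acid goes into the leukotrienes through 5-lipoxygenase (*Alox5*), which works with its activating protein *Alox5ap*, and *Ltc4s* then joins the product to glutathione to form leukotriene C4. *Alox12* is the 12-lipoxygenase known from platelets.

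These 10 genes were taken as a list chosen by name for their place in the pathways, with earlier results of these data known. Of them, 8 were among the 12101 genes of the expression table, and *Alox12* and *Hpgds* had no row there, so their expression was not analysed here. Megakaryocyte–erythroid progenitors (MEPs), which give rise to red blood cells and to the megakaryocytes that shed platelets, were sorted from the bone marrow of adult *Nanog*-tg mice, labelled as strain CD-1. The study drew such progenitors from marrow cells that carried c-Kit and lacked Sca-1 and the lineage antigens of mature blood cells, and told them apart by CD34 and CD16/32. All the mice carried both transgenes, M2-rtTA at *Rosa26* and a tetO-driven *Nanog* cDNA at *Col1a1*, so that doxycycline (dox) induces *Nanog* in every tissue where the activator is made and not in the progenitors alone. The dox-treated group (n = 3 libraries) drank dox for 5 days and the untreated group (n = 3 libraries) did not. No mice without the transgenes were given dox in these samples, so effects of dox and of *Nanog* cannot be told apart.

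*Nanog* had between 15959 and 19609 reads with dox and between 1 and 13 without. The libraries held between 11264803 and 16153600 reads on the listed genes, and 3 reads, taken as the smallest count told apart from 0, were worth between 0.193 and 0.273 CPM, the reads of a gene per 1000000 reads of the library as normalized by the authors. That limit covers counting error only. All 6 MEP markers were present (*Kit*, *Gata1*, *Klf1*, *Epor*, *Gfi1b* and *Tal1*), with a summed level between 1165 and 1396 CPM with dox and between 1612 and 1743 CPM without. Each of the 6 was lower in every dox-treated library than in every untreated one, as were 18.2% of all genes, and 0 passed limma. Without dox-treated replicate 3, *Gata1*, *Klf1* and *Epor* passed as lower (adjusted p = 0.0202, 0.0151 and 0.0178, limma), beside 14.0% of all genes. Of the genes for the antigens sorted against, *Ly6a* had no row, whereas *Cd34* averaged 121 CPM with dox (SD 54.9, n = 3) against 43.2 CPM in the untreated group (SD 17.4, n = 3). *Fcgr3* averaged 9.19 against 19.4 CPM and *Fcgr2b* 7.20 against 9.92 CPM. None of the 3 passed limma (adjusted p = 0.114, 0.146 and 0.636), but *Cd34* passed without dox-treated replicate 3 (adjusted p = 0.0347). Dox-treated replicate 3 stood apart from the other dox-treated libraries, with the megakaryocyte marker *Itga2b* at 66.9 CPM against 319 and 314 CPM, so results are also given without it. Whether a library came from 1 mouse or from several is not stated, so p-values measure the spread between these libraries.

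Of the 8 measured enzymes, *Pafah1b3* rose and *Alox5* fell with dox in the limma fit over 12088 genes (adjusted p under 0.05), and the other 6 did not pass. Over all genes tested, 4.59% were called higher and 3.18% lower by the same fit. The 3 dox-treated libraries lay wholly above the untreated ones for *Pafah1b3* and *Ltc4s* and wholly below them for *Alox5*, where 17.7% of all genes were wholly above and 18.2% wholly below. The median log2 fold change of the 8 genes was 0.47, against -0.03 over all genes. Without dox-treated replicate 3, *Ptgs1* and *Tbxas1* also passed, so that 3 genes were called higher and 1 lower, where the same fit called 14.9% of all genes higher and 14.0% lower. With 8 genes, these counts describe the list and do not set it apart from other genes.

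**Figure D1:**
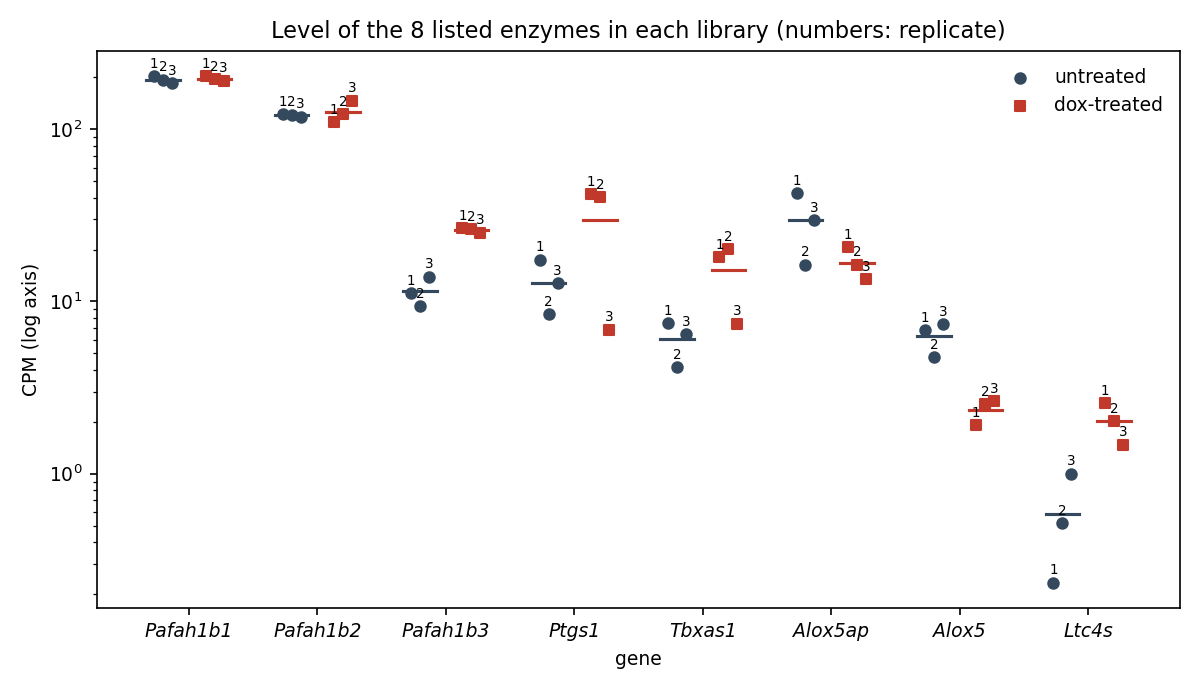
Level of each of the 8 measured enzymes in CPM (log axis) in the 3 untreated libraries (blue circles) and the 3 dox-treated libraries (red squares), with the replicate number beside each point and a line at the arithmetic mean. The dox-treated points of *Pafah1b3* sit between 25.2 and 26.7 CPM, above all untreated points, and dox-treated replicate 3 lies apart from replicates 1 and 2 for *Ptgs1* and *Tbxas1*.

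**Figure D2:**
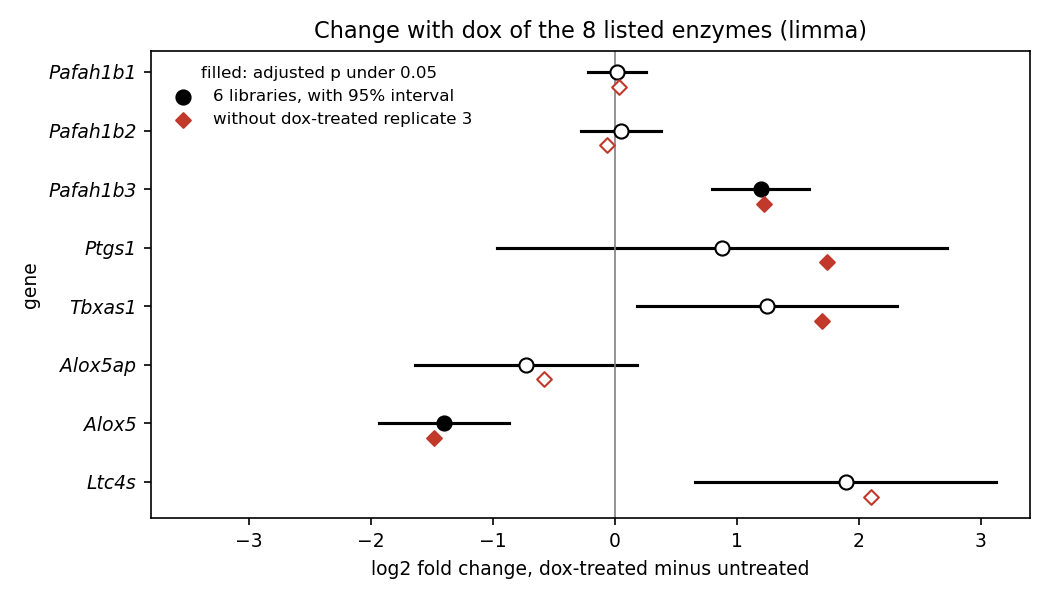
Log2 fold change of dox-treated over untreated libraries for each enzyme from limma on all 6 libraries (black, with its 95% interval) and without dox-treated replicate 3 (red diamonds), with filled symbols where the adjusted p is under 0.05. *Pafah1b3* and *Alox5* are filled in both fits, and *Ptgs1* and *Tbxas1* in the fit without replicate 3.

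To compare levels between genes, CPM were divided by the length of the longest annotated transcript. Which transcripts the cells used was not determined, so the order of genes rests on that choice. In untreated MEPs *Alox5ap* had the highest mean, 34.7 ± 15.4 CPM per kb (SD, n = 3), followed by *Pafah1b2* at 28.4 ± 0.446 and *Pafah1b1* at 22.7 ± 1.04. The wide range of *Alox5ap*, from 19.2 to 50.0 CPM per kb, took in both of these subunits. *Pafah1b3* followed at 10.4 ± 2.06 CPM per kb and *Ptgs1* at 4.49 ± 1.58, without overlap with their neighbours in the order. *Alox5* at 1.77 ± 0.391, *Tbxas1* at 1.32 ± 0.374 and *Ltc4s* at 0.815 ± 0.542 CPM per kb closed it, and in each neighbouring pair among these the ranges overlapped.

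With dox the order per kb changed at both ends. *Pafah1b2* led at 29.7 ± 4.40 CPM per kb (SD, n = 3), and *Pafah1b3* at 23.6 ± 0.717, *Pafah1b1* at 23.0 ± 0.668 and *Alox5ap* at 19.7 ± 4.21 followed with overlapping ranges. *Ptgs1* stood at 10.4 ± 6.95, *Tbxas1* at 3.34 ± 1.49 and *Ltc4s* at 2.82 ± 0.769 CPM per kb, again with overlapping ranges. *Alox5* was last at 0.660 ± 0.109 CPM per kb, below the lowest library of every other enzyme.

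The PAF acetylhydrolase genes were examined first. *Pafah1b3*, on chromosome 7 of NCBIM37 from 26080068 to 26083005 on the minus strand, had 26.7, 26.4 and 25.2 CPM in dox-treated replicates 1, 2 and 3. In untreated replicates 1, 2 and 3 it had 11.2, 9.38 and 13.9 CPM. The dox-treated libraries lay close together, and all of them were far above the untreated ones. The log2 fold change was 1.20 (standard error 0.16, 95% interval 0.80 to 1.59, adjusted p = 0.0175, limma), a 2.29-fold rise, with an exact permutation p of 0.1, the smallest that 3 libraries against 3 allow. The adjusted p was 0.0175 without dox-treated replicate 3 as well, but 0.0690 without dox-treated replicate 1, 0.0728 without dox-treated replicate 2 and 0.0704 without untreated replicate 1, with log2 fold changes between 1.18 and 1.19 in those 3 fits.

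The other catalytic subunit, *Pafah1b2* (chromosome 9, 45773394 to 45792954, minus strand), had 110, 122 and 146 CPM with dox and 122, 121 and 118 CPM without. Its dox-treated libraries fell on both sides of the untreated ones. Its log2 fold change was 0.05 (95% interval -0.27 to 0.38, adjusted p = 0.814, limma). The regulatory subunit *Pafah1b1* (chromosome 11, 74487451 to 74538172, minus strand) had 203, 196 and 192 CPM with dox and 204, 194 and 186 CPM without, with overlapping groups. Its log2 fold change was 0.02 (95% interval -0.22 to 0.25, adjusted p = 0.918, limma). These intervals leave room for small changes of either sign in both subunits, and neither interval reaches the lower bound of that of *Pafah1b3*.

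A ratio within a library does not depend on how libraries are scaled, so *Pafah1b3* was also set against *Pafah1b2* in each library. In dox-treated replicates 1, 2 and 3 the log2 ratio was -2.04, -2.21 and -2.54, and in untreated replicates 1, 2 and 3 it was -3.44, -3.69 and -3.08. All dox-treated ratios were above all untreated ratios, by 1.14 on average on the log2 scale, which is 2.21-fold (two-sided exact permutation p = 0.1, the smallest possible with 20 regroupings). Per kb of transcript, *Pafah1b3* made up 48.2, 45.3 and 39.7% of the catalytic subunit RNA with dox and 26.0, 22.9 and 31.1% without. The means were 44.4 ± 4.32% (SD, n = 3) and 26.7 ± 4.14% (SD, n = 3). These shares rest on the longest annotated transcripts, of 1106 bases for *Pafah1b3* and 4241 bases for *Pafah1b2*. The change of the log2 ratio does not rest on these lengths.

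**Figure D3:**
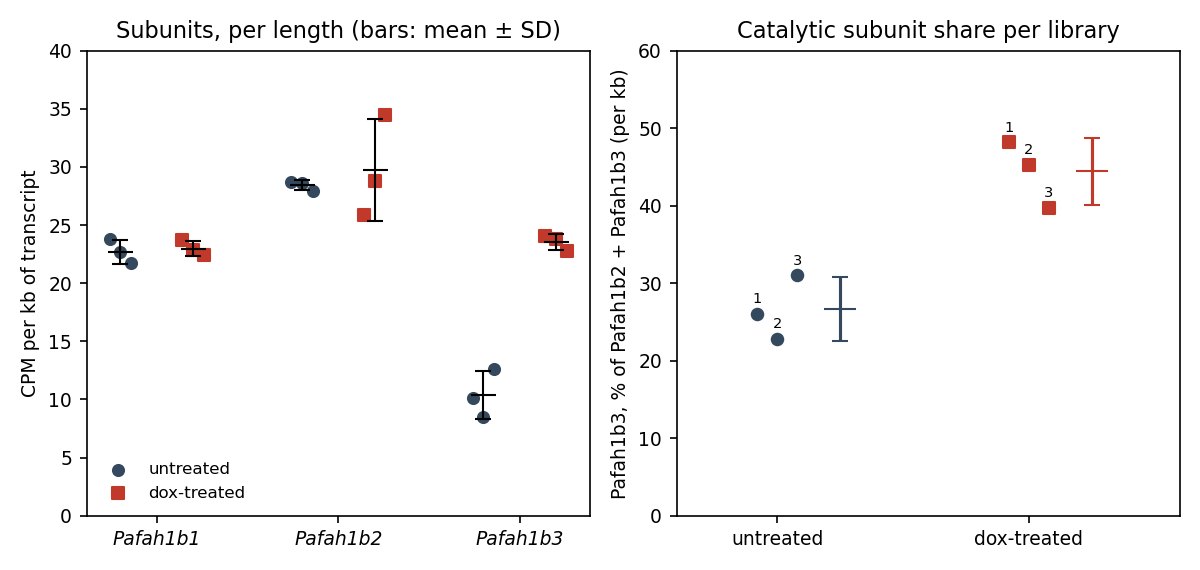
Left, level of the 3 subunit genes of type Ib PAF acetylhydrolase in CPM per kb of transcript, with points for libraries and bars for mean ± SD. Right, *Pafah1b3* as a percentage of *Pafah1b2* and *Pafah1b3* together per kb, by library (points, with replicate number) and as mean ± SD beside them. With dox, *Pafah1b3* comes up to the level of *Pafah1b1* per kb of the longest annotated transcript. The share of *Pafah1b3* lies between 39.7 and 48.2% against 22.9 to 31.1% without.

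Because LIS1 also serves dynein, 14 partners of that machinery were read as a list (dynein and dynactin subunits, *Nde1*, *Ndel1*, *Nudc* and *Dcx*). Of the 13 with a row, 0 passed limma at an adjusted p under 0.05 in either direction, and 1, *Nudc*, was lower at an unadjusted p under 0.05, where 15.6% of all genes were higher and 13.6% lower. *Nudc*, a chaperone partner of LIS1, averaged 153 CPM with dox (SD 19.0, n = 3) against 235 CPM in untreated libraries (SD 32.6, n = 3; adjusted p = 0.0668, limma), and it was named after its value was seen. With voom precision weights, with or without the replicate block, or with a mean-variance trend, *Nudc* alone passed. In those fits between 2.90% and 6.18% of all genes were called lower. With array quality weights *Dynll1* and *Nudc* passed as lower, beside 21.5% of all genes. The median log2 fold change of the 13 was -0.05.

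The 5 genes whose mean-centred log2 values lay nearest to those of *Pafah1b3* over the 6 libraries were *Dusp16*, *Tcea2*, *Gp9*, *Syde2* and *Casc4*, at root mean square distances of 0.0856, 0.0896, 0.107, 0.110 and 0.117 on the log2 scale. *Dusp16* averaged 31.7 CPM with dox (SD 2.51, n = 3) against 14.6 CPM in untreated libraries (SD 2.70, n = 3). *Gp9*, a chain of the platelet glycoprotein Ib-IX-V complex, averaged 9.39 CPM against 3.93 CPM in the same libraries. The likeness covers 2 groups of 3 libraries and says little beyond a similar step between them.

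The genes on the way to thromboxane were uneven among the dox-treated libraries, and neither passed over all 6. *Ptgs1* (chromosome 2, 36085946 to 36107792, plus strand) had 42.2, 40.5 and 6.87 CPM in dox-treated replicates 1, 2 and 3, and 17.5, 8.42 and 12.7 CPM in untreated replicates 1, 2 and 3. Dox-treated replicates 1 and 2 lay above every untreated library, whereas replicate 3 was the lowest of all 6. Over all 6 libraries the log2 fold change was 0.88 (95% interval -0.96 to 2.72, adjusted p = 0.466, limma, exact permutation p = 0.4). Without dox-treated replicate 3 it was 1.74 (adjusted p = 0.0238, limma).

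*Tbxas1* (chromosome 6, 38825403 to 39034584, plus strand) had 18.0, 20.2 and 7.44 CPM with dox and 7.46, 4.14 and 6.46 CPM without. Replicates 1 and 2 again lay above all untreated libraries, and replicate 3 lay just below untreated replicate 1. Over all 6 libraries the log2 fold change was 1.25 (standard error 0.43, 95% interval 0.18 to 2.31, adjusted p = 0.125, limma, exact permutation p = 0.2), a 2.38-fold difference that missed the threshold. Without dox-treated replicate 3 it was 1.70 (adjusted p = 0.0193, limma).

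The summed level of megakaryocyte markers was also highest in dox-treated replicates 1 and 2. Of 20 such markers 16 had a row, and 4 of them rose and 1, *Vwf*, fell in limma, beside 4.59% and 3.18% of all genes. The 4 became 8 without dox-treated replicate 3, beside 14.9% of all genes, 1 without untreated replicate 3 and 0 without any other library. The 1 fell to 0 without dox-treated replicate 2, untreated replicate 1 or untreated replicate 3. It was 2 without dox-treated replicate 3, beside 14.0% of all genes, or untreated replicate 2. Without any library other than dox-treated replicate 3, between 0.761% and 1.18% of all genes were called higher and between 0.298% and 1.04% lower. The summed level of the 16 markers was 663, 648 and 297 CPM in dox-treated replicates 1, 2 and 3 and between 181 and 251 CPM without dox. In replicates 1 and 2 *Itga2b*, which encodes the CD41 antigen, gave 319 and 314 CPM of that sum. Single markers differed from it, since *Gp5* was highest in dox-treated replicate 3, at 62.4 CPM, and *Gp1bb*, *Vwf* and *Thbs1* were lower in every dox-treated library than in every untreated one. The defining platelet genes *Ppbp*, *Gp6*, *Clec1b* and *Tubb1* had no row, and *Pf4* averaged 3.08 CPM with dox (SD 0.599, n = 3) against 6.56 CPM in untreated libraries (SD 2.68, n = 3). In bulk RNA fewer cells of a type and less RNA per cell cannot be told apart, and the part of these cells in the values of *Ptgs1* and *Tbxas1* was not tested.

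The promoters of *Ptgs1* and *Tbxas1*, the pair that was high in the same libraries, are shown with that of *Alox5*, which fell, as the 250 bases before the RefSeq gene start in GRCm38.p6. They lie at chr2:36230176-36230425 on the plus strand, chr6:38918736-38918985 on the plus strand and chr6:116461179-116461428 on the minus strand. Each is given 5′ to 3′, with capitals on matches to GATAA, the core bound by GATA factors, or to CANNTG, the E-box bound by TAL1 and other bHLH proteins, each searched on both strands.
Ptgs1: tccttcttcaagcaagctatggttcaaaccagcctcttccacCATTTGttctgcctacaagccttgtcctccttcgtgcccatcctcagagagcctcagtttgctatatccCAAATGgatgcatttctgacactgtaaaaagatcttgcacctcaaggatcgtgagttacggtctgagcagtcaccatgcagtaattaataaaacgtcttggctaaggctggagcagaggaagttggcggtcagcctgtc
Tbxas1: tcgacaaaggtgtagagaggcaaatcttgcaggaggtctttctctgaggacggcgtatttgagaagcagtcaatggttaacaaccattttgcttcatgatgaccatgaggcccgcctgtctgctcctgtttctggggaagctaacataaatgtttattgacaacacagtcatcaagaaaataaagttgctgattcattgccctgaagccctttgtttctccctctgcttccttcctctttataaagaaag
Alox5: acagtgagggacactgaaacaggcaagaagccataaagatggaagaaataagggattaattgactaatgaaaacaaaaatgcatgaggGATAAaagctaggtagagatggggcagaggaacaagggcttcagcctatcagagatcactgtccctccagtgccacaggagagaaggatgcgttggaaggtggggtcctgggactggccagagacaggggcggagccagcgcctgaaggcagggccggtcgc
GATAA was found in 22.6% and CANNTG in 66.2% of the 32851 promoters of the same length. The window of *Alox5* held GATAA once, its first base 162 bases before the start, and that of *Ptgs1* held CANNTG at 208 and 139 bases before the start. The window of *Tbxas1* held neither. RefSeq listed 11 promoters for 8 of the 10 enzymes, *Alox12* and *Hpgds* among them, and of these 2 held GATAA and 5 held CANNTG. *Pafah1b3* and *Alox5ap* had no entry. A match is a string of letters and not a site.

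The leukotriene genes went in different directions. *Alox5* (chromosome 6, 116360095 to 116411196, minus strand) had 26, 34 and 41 reads in dox-treated replicates 1, 2 and 3, or 1.91, 2.53 and 2.63 CPM. In untreated replicates 1, 2 and 3 it had 88, 64 and 81 reads, or 6.84, 4.73 and 7.37 CPM. The groups did not overlap, with every dox-treated library well below the lowest untreated one, replicate 2. *Alox5* fell by 1.40 on the log2 scale (standard error 0.22, 95% interval -1.93 to -0.86, adjusted p = 0.0230, limma, exact permutation p = 0.1), a level 2.63-fold lower. The adjusted p was 0.0201 without dox-treated replicate 3. It was 0.0777 without dox-treated replicate 1, 0.0798 without dox-treated replicate 2, 0.0796 without untreated replicate 1 and 0.0871 without untreated replicate 3, with log2 fold changes between -1.45 and -1.26.

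*Alox5ap* (chromosome 5, 150076634 to 150099621, plus strand), which presents arachidonic acid to 5-lipoxygenase, had 20.6, 16.4 and 13.5 CPM with dox and 42.6, 16.3 and 29.7 CPM without. Untreated replicate 2 lay among the dox-treated libraries, and the other untreated libraries lay above them. Dox-treated and untreated libraries differed by a log2 fold change of -0.73 (95% interval -1.64 to 0.18, adjusted p = 0.246, limma, exact permutation p = 0.3), so a change was not shown.

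Granulocyte-monocyte markers moved the same way as *Alox5*. All 15 had a row, 13 of them fell, beside 3.18% of all genes, and their summed level was between 550 and 804 CPM with dox and 5961, 2600 and 4232 CPM in untreated replicates 1, 2 and 3. In the untreated group, *Alox5* and *Alox5ap* were lowest in replicate 2, where these markers were lowest too. *Alox5* was highest in untreated replicate 3 and the markers in untreated replicate 1, and among the dox-treated libraries *Alox5* was highest in replicate 3, where the markers were lowest. The 13 markers called lower became 5 without dox-treated replicate 1, 9 without dox-treated replicate 2, 6 without untreated replicate 1, 8 without untreated replicate 2 and 2 without untreated replicate 3, where between 0.298% and 1.04% of all genes were called lower. Macrophage markers, of which 7 of 8 had a row, summed to between 11.1 and 16.1 CPM with dox and between 21.6 and 59.3 CPM without. The defining marker *Adgre1*, listed under its older symbol *Emr1*, averaged 1.20 CPM with dox (SD 0.290, n = 3) against 1.19 CPM in untreated libraries (SD 0.264, n = 3; adjusted p = 0.993, limma). Of the 7, *C1qc* rose and *Vcam1* fell, beside 4.59% and 3.18% of all genes. The fall of *Vcam1* was lost without dox-treated replicate 1, dox-treated replicate 2, untreated replicate 1 or untreated replicate 3. The rise of *C1qc* rested on 19, 22 and 21 reads with dox and 7, 6 and 6 without. It was lost with the replicate block, a mean-variance trend or voom precision weights, with or without the block. *Cd14* passed as lower without dox-treated replicate 3 (adjusted p = 0.0303, limma), beside 14.0% of all genes. Without *Vcam1* the other 6 macrophage markers summed to between 8.21 and 10.7 CPM with dox and between 6.87 and 9.73 CPM without. The lineage gate of the sort is meant to remove mature granulocytes and macrophages, and the part of either cell type in the values of *Alox5* and *Alox5ap* was not tested.

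*Ltc4s* (chromosome 11, 50049971 to 50052118, minus strand) had the fewest reads of the 8 genes, 35, 27 and 23 reads with dox and 3, 7 and 11 without. These correspond to 2.58, 2.01 and 1.48 CPM and to 0.233, 0.517 and 1.0 CPM. All dox-treated libraries lay above all untreated ones, although untreated replicate 1 was at the smallest count told apart from 0. The log2 fold change was 1.89 (standard error 0.50, 95% interval 0.66 to 3.13, adjusted p = 0.0751, limma, exact permutation p = 0.1), which did not pass the threshold. It passed when 1 CPM was added before the log (log2 fold change 0.94, adjusted p = 0.0433, limma). Exons of *Ltc4s* overlap *Gm16641* on the opposite strand, and the use of strand in counting is not stated, so its reads are uncertain.

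The summed level of mast cell markers was higher in the same libraries as *Ltc4s*. Of 16 such markers 7 had a row, 3 of them rose (*Cpa3*, *Ms4a2* and *Slc18a2*), beside 4.59% of all genes, and their summed level was between 278 and 302 CPM with dox and between 134 and 165 CPM without. The 3 became 1, *Cpa3*, when any library other than dox-treated replicate 3 was left out, where between 0.761% and 1.18% of all genes were called higher. *Enpp3* was lower in every dox-treated library, at 1.18 against 2.67 CPM on average (adjusted p = 0.0935, limma, and 0.00696 without dox-treated replicate 3). Among the defining markers, *Fcer1a*, *Tpsb2*, *Tpsab1*, *Cma1*, *Mcpt4* and *Hdc* had no row. Basophil markers had a row for 1 of 4, *Mcpt8*, at 0.578 to 1.62 CPM with dox and 1.40 to 2.72 CPM without. The part of these cells in the values of *Ltc4s* was not tested.

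**Figure D4:**
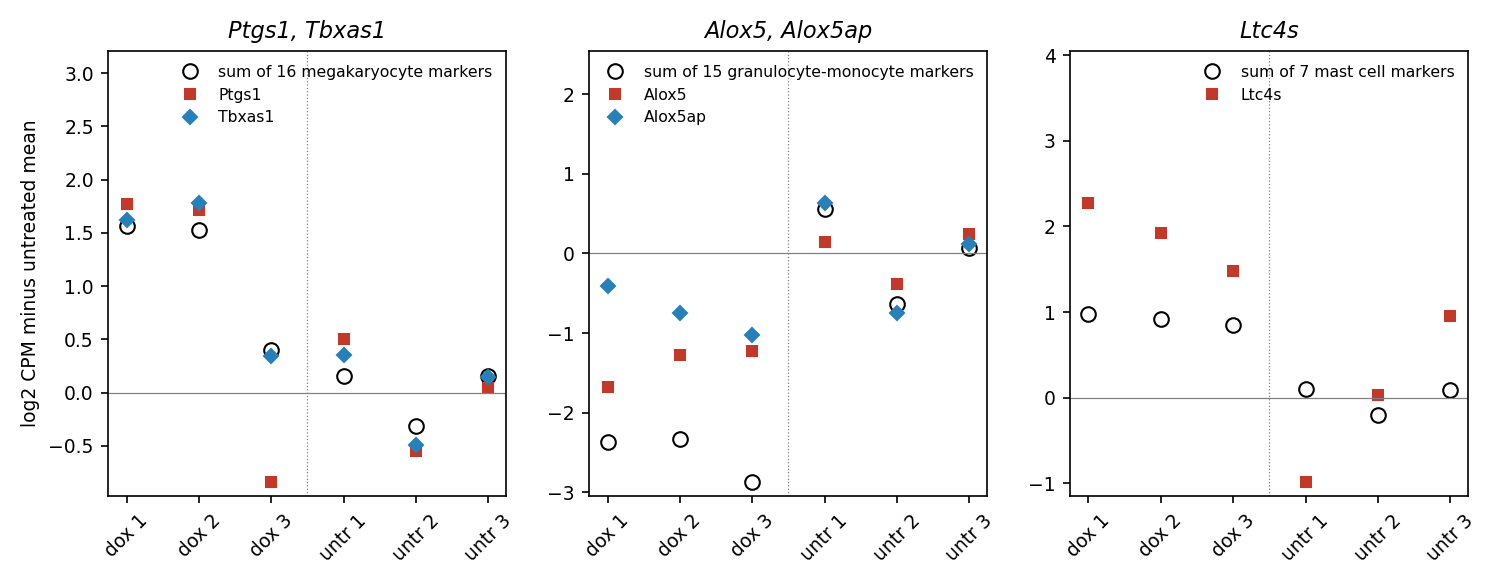
Each panel gives log2 CPM minus the untreated mean in the 6 libraries (dox, dox-treated replicate; untr, untreated replicate) for enzymes (filled symbols) and for the summed level of a marker list (open circles), with its own vertical scale. *Ptgs1*, *Tbxas1* and the megakaryocyte sum are highest in dox-treated replicates 1 and 2, *Alox5* and the granulocyte-monocyte sum are lower in every dox-treated library than in every untreated one, and *Ltc4s* and the mast cell sum are higher.

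To place the enzymes, 50 further genes that make, move or sense PAF and eicosanoids were read as a list, and 29 had a row. In limma 1 rose and 4 fell, and 24 did not pass. The log2 fold change was positive for 8 and negative for 21, with a median of -0.36. Over all genes tested, 4.59% were called higher and 3.18% lower, 5721 had a positive and 6367 a negative value, and the median was -0.03. Without dox-treated replicate 3 the counts for the list were 4 and 10, beside 14.9% and 14.0% of all genes. They were 0 and 1 without dox-treated replicate 1 or without untreated replicate 3, and 0 and 2 without dox-treated replicate 2, untreated replicate 1 or untreated replicate 2. In those fits between 0.761% and 1.18% of all genes were called higher and between 0.298% and 1.04% lower.

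On the PAF side, *Lpcat1*, which acylates lyso-phospholipids and can form PAF from lyso-PAF, had 36.7, 35.3 and 38.8 CPM with dox and 96.3, 134 and 96.3 CPM without. It fell by 1.54 on the log2 scale (standard error 0.16, adjusted p = 0.0107, limma), with the groups far apart. This call was lost with the replicate block (adjusted p = 0.0645, limma), where 0.24% of all genes were called lower. *Lpcat2*, which encodes the inducible lyso-PAF acetyltransferase, was higher in every dox-treated library, at 5.13 against 1.94 CPM on average, and did not pass (log2 fold change 1.41, adjusted p = 0.0933, limma), but passed without dox-treated replicate 3 (adjusted p = 0.0364). Nor did *Pafah2*, a PAF acetylhydrolase of a single subunit (log2 fold change -0.30, adjusted p = 0.190, limma). The genes for plasma PAF acetylhydrolase (*Pla2g7*) and the PAF receptor (*Ptafr*) had no row.

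Among prostanoid genes, *Ptger3*, a receptor for prostaglandin E2, had 15.2, 25.3 and 14.4 CPM with dox and 6.38, 8.87 and 7.64 CPM without. It rose by 1.22 on the log2 scale (standard error 0.26, adjusted p = 0.0451, limma), a call lost when any library other than dox-treated replicate 3 was left out (adjusted p 0.0849 to 0.129) and with quantile normalization (0.0696). *Ptgr1*, a reductase that inactivates prostaglandins and leukotriene B4, had 16.6, 18.4 and 16.4 CPM with dox and 50.7, 37.2 and 39.0 CPM without, and fell by 1.29 (standard error 0.15, adjusted p = 0.0127, limma), a call lost without dox-treated replicate 1 (0.0567) or untreated replicate 3 (0.0530). The thromboxane receptor *Tbxa2r* was low in both groups, at 1.39 ± 0.716 CPM (SD, n = 3) and 1.19 ± 0.653 CPM (SD, n = 3).

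Among leukotriene genes, *Ltb4r1*, the high-affinity receptor for leukotriene B4, had 3.39, 2.83 and 1.48 CPM with dox and 13.9, 5.91 and 11.5 CPM without. It fell by 2.0 on the log2 scale (standard error 0.43, adjusted p = 0.0481, limma). *Abcc1*, a pump that exports leukotriene C4, had 35.4, 36.7 and 56.9 CPM with dox and 84.1, 79.6 and 80.8 CPM without, and fell by 0.96 (standard error 0.20, adjusted p = 0.0458, limma). Both calls were lost when any library other than dox-treated replicate 3 was left out, with adjusted p between 0.0590 and 0.140 for *Ltb4r1* and between 0.119 and 0.158 for *Abcc1*. *Lta4h*, which makes leukotriene B4, had means of 160 CPM with dox (SD 17.0, n = 3) and 200.1 CPM in untreated libraries (SD 29.1, n = 3), and did not pass (adjusted p = 0.222, limma). *Ggt5*, another gene of the list, was higher in every dox-treated library, at 6.55 against 1.53 CPM on average. It did not pass (log2 fold change 2.14, adjusted p = 0.0577, limma), but passed without dox-treated replicate 3 (adjusted p = 0.0338, limma). Its exons overlap *Gm17269* on the same strand. The cysteinyl leukotriene receptors *Cysltr1* and *Cysltr2* had no row.

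**Figure D5:**
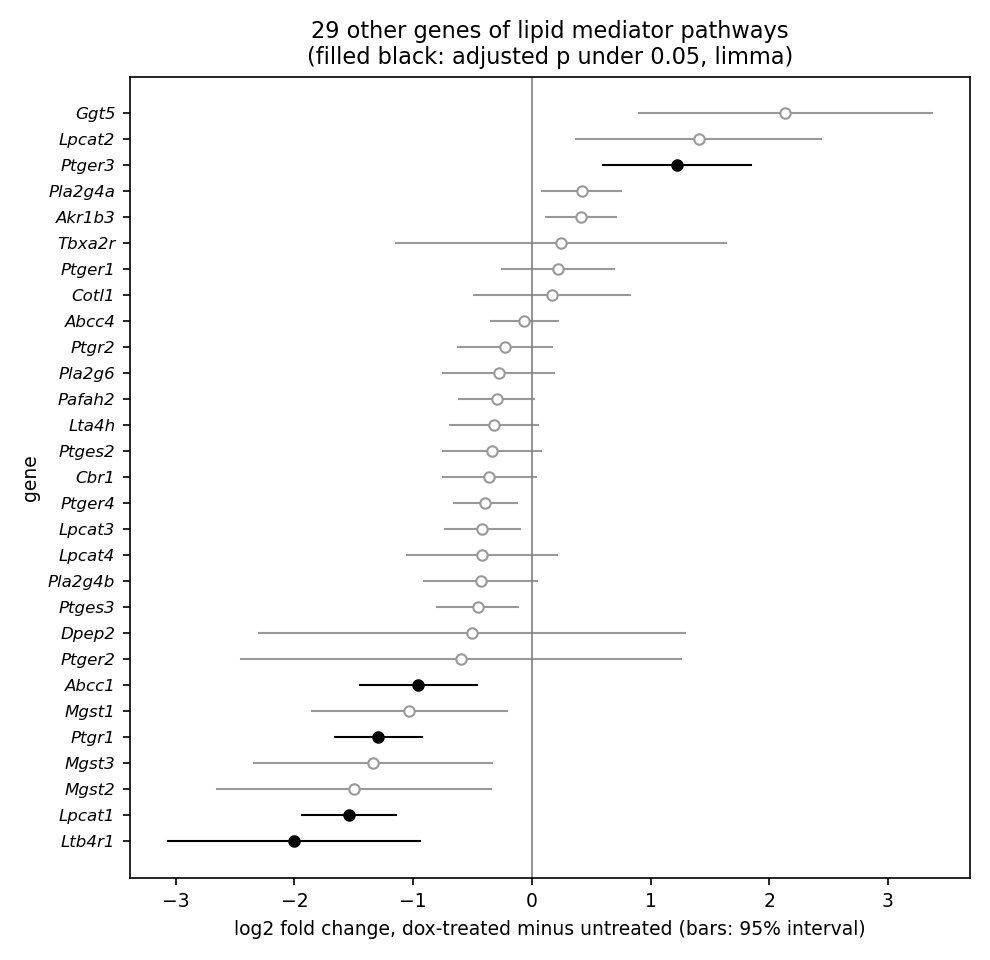
Log2 fold change of dox-treated over untreated libraries for the 29 other pathway genes with a row, ordered by value, with bars for the 95% interval from limma and filled black symbols where the adjusted p is under 0.05. *Ptger3* is the only filled gene on the right, and *Abcc1*, *Ptgr1*, *Lpcat1* and *Ltb4r1* are filled on the left.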

How the data were processed

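RNA-seq was done on MEPs sorted from adult *Nanog*-tg mice. Reads trimmed with Cutadapt were quantified by the authors with RSEM against Ensembl transcripts of NCBIM37 and normalized in limma. For each of 12101 genes they deposited the log2 of CPM after adding 0.5 reads. How low genes were filtered and whether strand was used in counting are not given in the sources used here. Whole reads were recovered from the log2 values (largest deviation 6.6e-09 reads) and used for depth.

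Groups were compared with limma (version 3.58.1, R 4.3.3) on the deposited values, without a block, over 12088 genes (1 CPM or more in 3 or more libraries), with Benjamini–Hochberg adjusted p-values and a threshold of 0.05. The pseudocount understates changes of low genes. Single values had two-sided exact permutation tests. Levels between genes were compared as CPM per 1000 bases of the longest transcript in the NCBIM37 annotation (Ensembl 65). Promoters came from RefSeq. Other steps ran in Python 3.11.15 with numpy 2.4.6, pandas 2.3.3 and, for figures, matplotlib 3.10.9.

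The 10 enzymes and all lists were chosen with earlier results of these data known. All enzymes were named, the pathway genes past the threshold, and the 5 genes nearest to the enzyme with the smallest adjusted p; listed genes without a row under their symbol were looked up under RefSeq synonyms; other list genes were named for their role or after their values were seen. Alternatives changed the pseudocount, filter, variance model, weights, scaling and block, or left out each library in turn.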

Additional observations from a re-analysis of the deposited data

How the results depend on the processing

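Over 15 alternative fits, *Pafah1b3* was higher in 15 and passed in 11, and *Alox5* was lower in 15 and passed in 9. *Tbxas1*, *Ptgs1* and *Ltc4s* were higher in 15 and passed in 2 each, and *Alox5ap* was lower in 15 and passed in 0. Of the enzymes, 1 was called higher in limma on all libraries, 2 with 1 CPM added before the log (6.23% of all genes), 4 with array quality weights (20.8%) and between 0 and 3 when 1 library was left out. The 3 were called without dox-treated replicate 3, where 14.9% of all genes were called higher. Without dox-treated replicate 1, dox-treated replicate 2 or untreated replicate 1, 0 were called, where 0.84%, 0.76% and 1.1% of all genes were. The number called lower, 1, went to 0 with voom precision weights and the replicate block together (2.90% of all genes). It was between 0 and 1 when 1 library was left out, where between 0.298% and 14.0% of all genes were called lower. The log2 ratio of *Pafah1b3* to *Pafah1b2*, 1.14, was between 1.0 and 1.30 with 1 library left out. The change of *Pafah1b1* reversed to -0.0168 with libraries centred on their median, and with 1 library left out it was between -0.0147 and 0.0514, below 0 without dox-treated replicate 1 or untreated replicate 3. That of *Pafah1b2* reversed to -0.0502 with array quality weights and was between -0.0600 and 0.148 with 1 library left out, below 0 without dox-treated replicate 3. None of these 5 passed, and the cause was not tested.

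Both groups carry replicate numbers 1 to 3. Deviations from the group means of same-numbered libraries correlated at 0.018, -0.12 and -0.30, so the numbers were not taken to pair the samples. With the replicate block, 0 enzymes were called higher and 0 lower (adjusted p = 0.0839 for *Pafah1b3* and 0.0884 for *Alox5*, limma), and 3 were higher and 1 lower at an unadjusted p under 0.05, as were 12.5% and 8.17% of all genes. The mean difference of the *Pafah1b3* to *Pafah1b2* ratio within the same numbers, 1.14, equals that of the group means by construction, and was not tested. With the block, limma called 0 megakaryocyte, 0 mast cell and 0 macrophage markers (9 higher and 4 lower, 5 and 1, and 1 and 2 at an unadjusted p under 0.05), 2 granulocyte-monocyte markers lower, and 0 of the 29 wider pathway genes (3 higher and 8 lower unadjusted). With voom precision weights and the block, *Pafah1b3* passed (adjusted p = 0.0184), as did 6 megakaryocyte markers higher and 1 lower, 3 mast cell markers higher, 13 granulocyte-monocyte markers lower, and 1 wider pathway gene higher and 5 lower. Over all genes tested, 555 were higher and 384 lower. The counts were 53 and 29 with the replicate block, 575 and 351 with voom precision weights and the block, 753 and 494 with 1 CPM added, 909 and 747 with a mean-variance trend, and 2515 and 2601 with array quality weights. They were 1801 and 1687 without dox-treated replicate 3, and between 92 and 143 and between 36 and 126 without any other library. Ratios of *Tbxas1* to *Hpgds* and of *Alox12* to *Alox5* were planned but not run, since *Hpgds* and *Alox12* had no row. *Alox5* and *Ltc4s* rest on few reads, and 3 libraries a group cannot give an exact p under 0.1.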
